A study of Mus musculus with 2 samples.

Results

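Transcription factors that set the fate of lymphocytes were followed through the T and NK cells of mouse mammary tumors. The set held 10 genes, Tcf7, Tox, Eomes, Tbx21, Prdm1, Id2, Id3, Runx3, Ikzf2 and Foxp3, chosen by symbol among the 27998 genes of the count tables, and each had a row in both tables. CD45+ cells, meaning leukocytes, had been isolated with magnetic beads from subcutaneous tumors of TSA cells, a mammary adenocarcinoma line, in Balb/c mice. The first library came from untreated mice, and the second from mice whose drinking water held 0.5% NAM (nicotinamide, the amide of vitamin B3) over 10 days. Tumors of 3 mice were pooled per library, both groups carried the same tumor and no genetic change was named, and the labels give no age. Since each group had 1 library, no comparison of NAM with untreated could be tested against replicates, and the treatment cannot be told apart from a difference in how the 2 libraries were prepared. The comparison asked whether these factors differed between the lymphocytes of untreated and NAM-treated tumors.

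These factors work as opposed pairs and as lineage determinants. TCF1, the product of Tcf7, keeps T cells in a naive, memory or stem-like state, and ID3 is linked to that same state, whereas ID2, T-bet (Tbx21) and BLIMP1 (Prdm1) drive effector differentiation. EOMES and T-bet are related T-box factors of cytotoxic T cells and NK cells, RUNX3 maintains the CD8 program, and TOX sustains T cells under chronic antigen. FOXP3 defines regulatory T cells, and Helios (Ikzf2) accompanies it there. In tumors, exhausted CD8 T cells that keep TCF1 are known as the pool that can still expand.

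Cells were assigned by unique molecular identifiers (UMIs, each standing for 1 captured transcript). T cells had a Cd3e UMI and no Ncr1 UMI, and those with a Cd8a or Cd8b1 UMI were taken as CD8 T cells. Of the rest, cells with UMIs of at least 2 of the 4 genes Il2ra, Ctla4, Tnfrsf4 and Tnfrsf18 were called regulatory-like, a gate that used no factor of the set, and the remainder were called other T cells. NK cells had an Ncr1 UMI and no Cd3e UMI. All had to carry less than 1% of their UMIs in 8 macrophage genes. The untreated library held 96 CD8 T, 67 regulatory-like, 22 other T and 80 NK cells among 2922 cells, and the NAM library held 153, 61, 36 and 40 among 3276. CD8 T cells were thus 3.29% of the untreated library (2.67 to 4.00%, 95% Clopper-Pearson interval) and 4.67% of the NAM library (3.97 to 5.45%), and NK cells were 2.74% (2.18 to 3.40%) and 1.22% (0.874 to 1.66%). These shares are of the cells in the tables, where none lay under the paper's limit of UMIs per cell. What that limit removed from each class was not tested. Cells with both Cd3e and Ncr1 UMIs, 11 untreated and 19 NAM, were kept out of the classes. Median depth per cell was close between libraries for CD8 T cells (4519 and 4498 UMIs) and lower in NAM for NK cells (5289.5 and 4545.5). The libraries shared 11 barcodes.

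The gates were compared with marker genes. Cd3g was seen in 100% and 98.0% of CD8 T cells, and the NK gene Klrb1c was at 0 there in both libraries. Other NK markers were seen in that gate, with Klrk1 in 81.3% and 81.0%, Klre1 in 38.5% and 44.4% and Xcl1 in 26.0% and 27.5%. Klra8 had 1 UMI there in untreated and 0 in NAM. Cd4 was seen in 58.2% and 49.2% of regulatory-like cells, with no Cd8a UMI by construction. In the NK gate, Klrb1c was seen in 56.3% of untreated and 60.0% of NAM cells. Genes of the CD3 complex were not absent there, since Cd3g was seen in 20% and 22.5% of NK-gated cells and Cd3d in 7.5% and 12.5%. All 9 NK markers had UMIs in both libraries, but they include the gate gene Ncr1 and Eomes itself, and Klra8 had 1 UMI in each. The other T gate went against its label in part, since 18 of its 58 cells, 3 untreated and 15 NAM, had fewer than 3 UMIs of 10 lymphoid genes. All 18 of them had a Cd74 UMI and 17 an H2-Aa UMI, genes of MHC class II presentation, while 1 had a Cd3d UMI. Of the other 40 cells 39 had a Cd3d UMI, and Cd74 and H2-Aa were not counted there. The values of other T cells that the text turns on are therefore given with and without the 18. None of the gene symbols for gamma delta T-cell receptor constant regions had a match in the tables, so such cells could not be told from the rest.

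Levels are given as CPM, the UMIs of a gene scaled to 1e+06 UMIs of the class, with exact 95% Poisson intervals, and ratios of NAM to untreated on the log2 scale with an exact conditional interval. These intervals cover counting error only. A ratio was read as past the fold rule when it reached 1.5 fold and its interval left out 0, among genes with at least 20 UMIs in the class over both libraries. Free RNA was judged from 2205 untreated and 2456 NAM macrophage-rich cells without Cd3e or Ncr1 UMIs. There Tcf7, Tox, Eomes, Tbx21 and Foxp3 were seen in at most 0.366% of cells despite a median depth of 9272 and 9276 UMIs. Ikzf2 was seen in 2.40% and 2.32%. Id2 (84.8% and 81.8%), Runx3 (50.6% and 54.0%), Id3 (40.8% and 36.3%) and Prdm1 (21.1% and 25.6%) were expressed by the macrophage-rich cells themselves, which therefore give no background for these 4 genes.

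The related T-box genes are shown by the 250 bases before their first RefSeq start (GRCm38.p6), since their levels parted in CD8 T cells, as described further on. The window of Eomes lies at chr9:118477939-118478188 on the plus strand and that of Tbx21 at chr11:97115332-97115581 on the minus strand, both upstream of the annotated gene and overlapping 0 GENCODE exons. Capitals mark E-box letters (CANNTG), the kind of site that E proteins bind and that ID2 and ID3 keep them from.

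Eomes: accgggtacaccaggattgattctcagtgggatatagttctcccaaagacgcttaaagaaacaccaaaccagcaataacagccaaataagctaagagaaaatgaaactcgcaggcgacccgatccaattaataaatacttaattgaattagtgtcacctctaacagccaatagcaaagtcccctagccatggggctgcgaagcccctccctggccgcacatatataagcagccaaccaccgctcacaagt

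Tbx21: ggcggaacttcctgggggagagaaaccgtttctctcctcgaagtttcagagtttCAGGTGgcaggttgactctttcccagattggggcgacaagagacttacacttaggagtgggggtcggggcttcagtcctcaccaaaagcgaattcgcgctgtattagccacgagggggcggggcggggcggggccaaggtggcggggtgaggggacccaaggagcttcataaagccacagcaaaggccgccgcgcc

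The Tbx21 window held 1 E-box and the Eomes window 0, where 66.2% of 32851 RefSeq windows of this length held one. Neither window held the letters CTTTGA, bound by TCF1, TGTGGT, bound by RUNX factors, or GGTGTGA, bound by T-box factors, on either strand. Those letters occurred in 13.8%, 14.05% and 3.33% of all windows. Of the 10 factors, 8 had a window in the RefSeq table. The matches describe letters only.

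Foxp3, Ikzf2, Eomes and Tox separated the classes in both libraries. Foxp3 (chrX:7573644-7595245, mm10), which was not used for gating, stood at 202 CPM (160 to 253) in untreated and 176 CPM (135 to 225) in NAM regulatory-like cells. It was at 0 UMIs in NK and other T cells of both libraries, and against a floor of 3 UMIs in NK cells regulatory-like cells were at least 39.0 fold higher in the untreated and 12.3 fold in the NAM library, before the counting error of their own level. The lower limits of the log2 ratio were 4.95 and 3.29. In CD8 T cells only 3 and 8 Foxp3 UMIs were found, 5.92 and 9.62 CPM. Foxp3 was seen in 58.2% and 57.4% of regulatory-like cells, and after thinning every cell to 3000 UMIs in 50.7% and 47.5%.

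Ikzf2 (chr1:69531214-69687245), which encodes Helios, was highest in the same cells, at 1018 CPM (918 to 1125) in untreated and 995 CPM (895 to 1103) in NAM. CD8 T cells carried 255 CPM (213 to 302) and 311 CPM (275 to 352), below the regulatory-like level past the fold rule in both libraries (upper bounds of the log2 ratio -1.71 and -1.44). NK cells had 171 CPM in both libraries (139 to 209 and 120 to 237). Despite that order, Ikzf2 was not confined to regulatory-like cells, since 39.6% of untreated and 50.3% of NAM CD8 T cells had a UMI of it (33.3% and 44.4% when thinned).

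Eomes (chr9:118478212-118486132) belonged to CD8 T and NK cells. It stood at 105 CPM (78.3 to 137) in untreated CD8 T cells and 98.7 CPM (74.8 to 128) in untreated NK cells, which did not differ beyond counting error (log2 ratio of CD8 T to NK 0.08, -0.48 to 0.65). In NAM the order parted, with 43.3 CPM (30.3 to 59.9) in CD8 T and 90.3 CPM (54.4 to 141) in NK cells. Regulatory-like cells had 1 and 3 Eomes UMIs. Tbx21 (chr11:97098071-97115331) stood at 47.4 and 57.7 CPM in CD8 T, 26.6 and 22.0 CPM in regulatory-like and 58.9 and 105 CPM in NK cells, untreated and NAM in turn.

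Tox (chr4:6686353-6991557) was higher in CD8 T and regulatory-like cells than in NK cells. It reached 126 CPM (97.3 to 161) and 138 CPM (114 to 166) in CD8 T and 101 CPM (71.6 to 139) and 93.5 CPM (64.7 to 131) in regulatory-like cells. NK cells had 22.5 CPM (12.0 to 38.5) and 14.3 CPM (2.94 to 41.7), lower than CD8 T cells by log2 ratios of 2.49 (1.61 to 3.47) and 3.28 (1.69 to 5.58). CD8 T and regulatory-like cells did not part past the fold rule in either library. Other T cells, the mixed gate, had 1 and 4 Tox UMIs, 7.64 and 12.8 CPM, or 11.1 CPM (0.28 to 61.6) and 42.0 CPM (11.4 to 108) without the 18 cells poor in lymphoid genes. Runx3 (chr4:135120652-135177990) was highest in NK cells, at 225 CPM (188 to 267) and 257 CPM (193 to 335), against 164 CPM (130 to 203) and 117 CPM (94.6 to 142) in CD8 T and 101 CPM (71.6 to 139) and 88.0 CPM (60.2 to 124) in regulatory-like cells. CD8 T and NK cells differed past the fold rule in Runx3 only in the NAM library.

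Tcf7 (chr11:52252371-52283014) was lowest in regulatory-like cells, with 2 and 6 UMIs (5.33 and 16.5 CPM), and its order between CD8 T and NK cells turned between the libraries. Id2 (chr12:25093799-25097140) stood at 930 and 849 CPM in CD8 T, 1018 and 1036 CPM in regulatory-like and 838 and 689 CPM in NK cells. In other T cells it was lower, at 451 and 276 CPM from 59 and 86 UMIs, and without those 18 cells at 144 and 231 CPM from 13 and 22 UMIs. Its counterpart Id3 (chr4:136143497-136145755) was sparse, with at most 17 UMIs in any class and library, and so was Prdm1 (chr10:44437177-44528501) with at most 13. Those 13 Prdm1 UMIs lay in NAM other T cells, where 0 remained without the 18 cells.

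Counted over the set, 3 of 8 factors with enough UMIs separated CD8 T from regulatory-like cells past the fold rule the same way in both libraries, Eomes being higher in CD8 T and Ikzf2 and Foxp3 in regulatory-like cells, where 7.05% of all genes tested did so. Between regulatory-like and NK cells 7 of 8 did, with Tox, Ikzf2 and Foxp3 higher in regulatory-like and Tcf7, Eomes, Tbx21 and Runx3 higher in NK cells, against 10.9% of genes. With NK cells that also lacked Cd3d, Cd3g, Cd8a and Cd8b1 UMIs the count was 4. Between CD8 T and NK cells 1 of 7 did, namely Tox, against 5.84% of genes. These factors are markers of the classes, so a high share was built into the choice of genes.

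**Figure D1:**
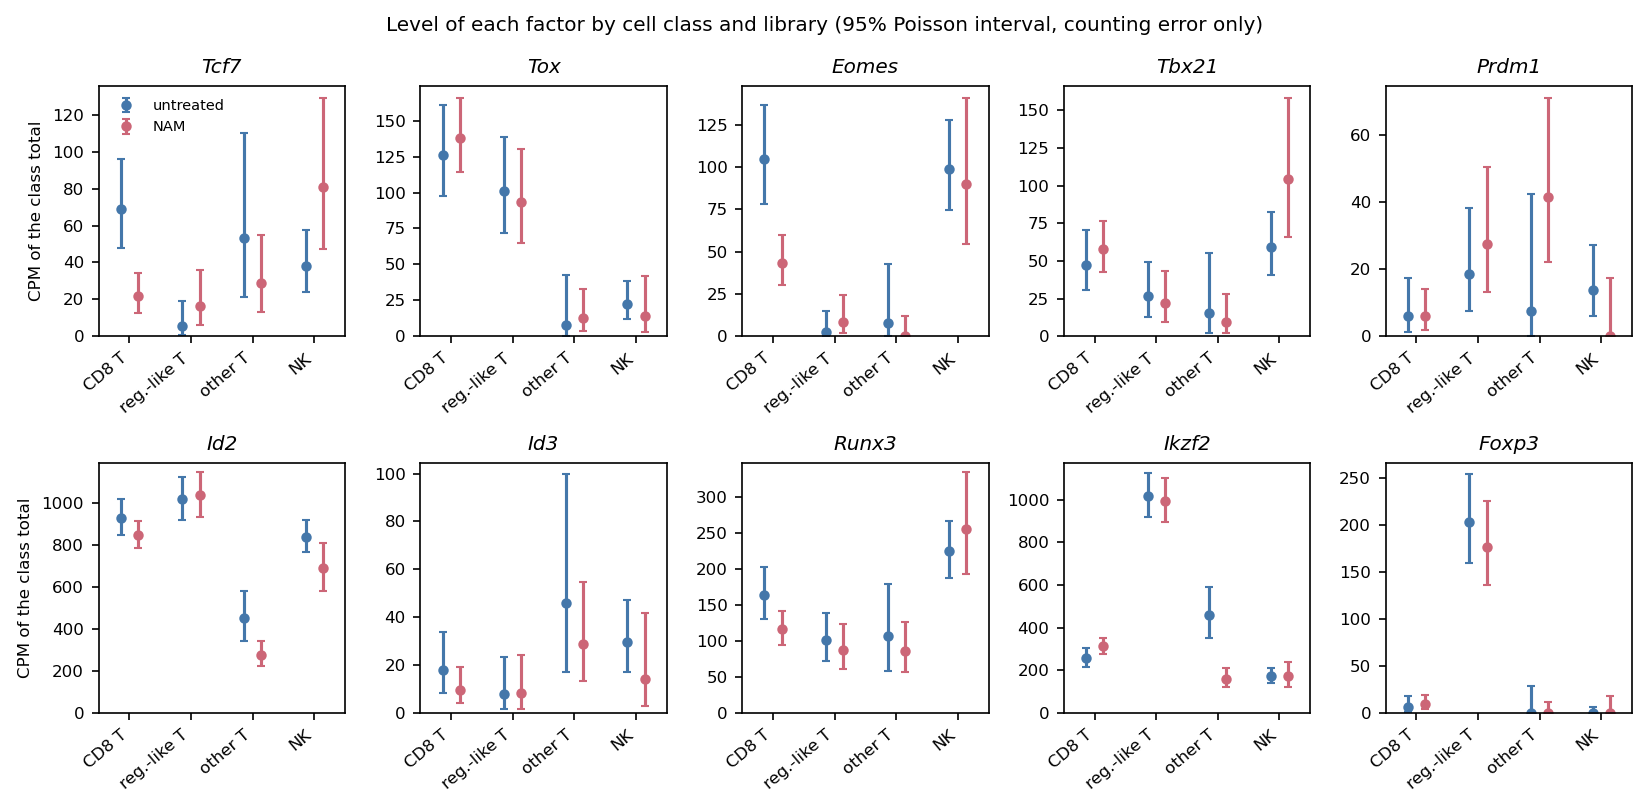
Level of each factor in CPM of the class total (vertical axis, linear) by cell class (horizontal axis) in the untreated (blue) and NAM (red) library. Points are the summed level and bars the exact 95% Poisson interval. Foxp3 and Ikzf2 peak in regulatory-like cells, Eomes in CD8 T and NK cells, and Tcf7 and Eomes of CD8 T cells lie lower in NAM.

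In CD8 T cells, Tcf7 and Eomes were lower in NAM past the fold rule, and the 5 other factors with enough UMIs were not past it. Tcf7 went from 35 UMIs in untreated cells, 69.1 CPM (48.1 to 96.1), to 18 UMIs in NAM, 21.6 CPM (12.8 to 34.2), a log2 ratio of -1.67 (-2.58 to -0.82). The intervals of the 2 libraries did not overlap. A Tcf7 UMI was seen in 19 of 96 untreated cells, or 19.8% with an interval of 12.4 to 29.2%, and in 15 of 153 NAM cells, or 9.80% with an interval of 5.59 to 15.7%. At 3000 UMIs per cell the shares were 15.6% (9.02 to 24.5%) and 7.19% (3.64 to 12.5%), so the shares of cells overlapped in their intervals although the summed level did not. The ratio stayed between -1.77 and -1.38 under all 14 alternatives tried.

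Eomes went from 53 UMIs, 105 CPM, to 36 UMIs, 43.3 CPM, a log2 ratio of -1.27 (-1.93 to -0.64). It was seen in 32.3% of untreated cells (23.1 to 42.6%) and in 18.3% of NAM cells (12.5 to 25.4%), and in 21.9% (14.1 to 31.5%) and 13.1% (8.17 to 19.5%) at equal depth. Again the levels parted and the shares did not fully. Cells with a UMI of the cell cycle genes Mki67 or Top2a were 27.1% of untreated and 20.3% of NAM CD8 T cells. They held 22 of the 53 untreated and 5 of the 36 NAM Eomes UMIs, at 132 CPM and 19.5 CPM. Without them the Eomes ratio was -0.76 (-1.53 to 0.01), no longer past the fold rule, while that of Tcf7 was -1.38 (-2.42 to -0.37). Gzma, a granzyme that NK cells also make, moved with Eomes (229 CPM in untreated, 52.9 CPM in NAM), with UMIs in 5.21% and 5.23% of cells. In an alternative chosen after seeing the data, without every T cell holding a Gzma or Klrb1c UMI, the Eomes ratio was -1.19 (-1.87 to -0.52).

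The T-box partner of Eomes did not follow it. Tbx21 had 24 UMIs in untreated, 47.4 CPM (30.3 to 70.5), and 48 in NAM, 57.7 CPM (42.5 to 76.5), a log2 ratio of 0.28 (-0.45 to 1.06). Runx3 was at 164 CPM and 117 CPM, a ratio of -0.49 (-0.93 to -0.05) that left out 0 but did not reach 1.5 fold. Tox stood at 126 and 138 CPM (0.13, -0.32 to 0.59) and Id2 at 930 and 849 CPM (-0.13, -0.30 to 0.04). Ikzf2, at 255 and 311 CPM, had a ratio of 0.29 (-0.02 to 0.61). For Id2 the interval kept any difference below 1.5 fold, while for Tbx21 it reached 1.06 on the log2 scale. Prdm1 had 3 and 5 UMIs, Id3 had 9 and 8, and Foxp3 had 3 and 8, too few to compare. In all, 7 of the 10 factors had 20 UMIs or more, and 2 of these were past the fold rule, both lower in NAM, where 8.13% of 5780 genes were past it in either direction. The median log2 ratio of these 7 was -0.13 and that of all genes tested 0.02.

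In regulatory-like cells no factor parted between the libraries past the fold rule. Foxp3 (76 and 64 UMIs) had a log2 ratio of -0.20 (-0.71 to 0.30), Ikzf2 (382 and 362 UMIs) of -0.03 (-0.24 to 0.18) and Id2 (382 and 377 UMIs) of 0.03 (-0.18 to 0.24). The intervals of Ikzf2 and Id2 exclude a change of 1.5 fold and that of Foxp3 does not. Tox was at 101 and 93.5 CPM (-0.12, -0.83 to 0.59) and Runx3 at 101 and 88.0 CPM (-0.20, -0.93 to 0.51). Ikzf2 was seen in 80.6% (69.1 to 89.2%) and 86.9% (75.8 to 94.2%) of cells. This covers the 5 factors with enough UMIs, beside 9.89% of 4309 genes past the rule. The other 5 had between 1 and 10 UMIs per library.

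In NK cells Tcf7 was the only factor past the fold rule, in the direction opposite to CD8 T cells. It went from 22 UMIs, 38.1 CPM (23.9 to 57.7), to 17 UMIs, 80.8 CPM (47.1 to 129), a log2 ratio of 1.08 (0.08 to 2.06). A Tcf7 UMI was seen in 15 of 80 untreated (18.8%, 10.9 to 29.0%) and 14 of 40 NAM cells (35%, 20.6 to 51.7%), or 15% (7.998 to 24.7%) and 27.5% (14.6 to 43.9%) at equal depth, with overlapping intervals throughout. The interval included 0 under several alternatives. Without the 2.5% of cells with most UMIs the ratio was 0.71 (-0.30 to 1.69), without the 5 cells per library with most Tcf7 UMIs it was 1.32 (-0.12 to 2.73), and without the 4 untreated NK-gated cells that had fewer than 3 lymphoid panel UMIs it was 0.81 (-0.19 to 1.79). The share past the rule, 1 of 7 factors, was close to the 9.94% of 4305 genes.

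Tbx21 of NK cells stood at 58.9 CPM (40.8 to 82.3) and 105 CPM (65.5 to 158), a ratio of 0.83 (-0.02 to 1.64), and the share of cells was 28.8% and 30.0%. Over 14 alternatives the ratio ran from -0.01 to 1.29, and it passed the fold rule under 3 of them, namely with T cells taken by any Cd3 gene, with the stricter NK gate (1.29, 0.36 to 2.195) and with median-of-ratios scaling (0.89, 0.04 to 1.70). Eomes (98.7 and 90.3 CPM, -0.13, -0.96 to 0.64), Runx3 (225 and 257 CPM, 0.19, -0.30 to 0.66) and Ikzf2 (171 CPM in both, 0.00, -0.60 to 0.56) differed by less than counting error. Id2 was at 838 and 689 CPM, a ratio of -0.28 (-0.56 to -0.01), under 1.5 fold. Without cells holding an Mki67 or Top2a UMI it was past the rule, at 951 and 622 CPM (-0.61, -0.96 to -0.28). Id3 had 17 and 3 UMIs, 29.4 and 14.3 CPM, a ratio of -1.05 (-3.46 to 0.74) that turned to 0.81 (-0.36 to 1.96) with the lymphoid panel in place of the macrophage limit. Prdm1 had 8 UMIs in untreated, 6 of them in 1 cell, and 0 in NAM, with an upper Poisson bound of 17.5 CPM.

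Among other T cells, Ikzf2 (60 and 50 UMIs, 458 and 160 CPM) had a ratio of -1.52 (-2.09 to -0.95) and Id2 (59 and 86 UMIs) of -0.71 (-1.205 to -0.21), so 2 of 3 factors were past the fold rule, where 15.9% of 2837 genes were. Neither held without the 18 cells that lacked lymphoid genes. Ikzf2 was then at 663 and 525 CPM, a ratio of -0.34 (-0.91 to 0.23), with all of its UMIs retained, and that of Id2 turned to 0.68 (-0.37 to 1.80).

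**Figure D2:**
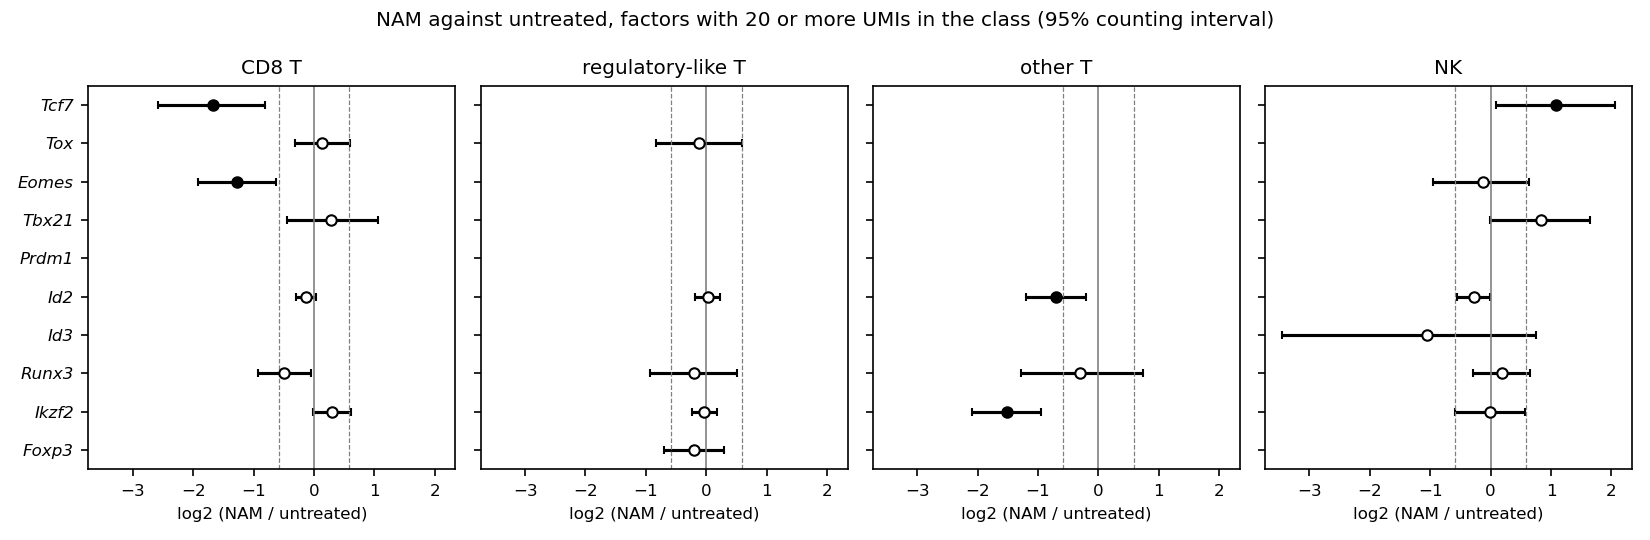
Log2 ratio of NAM to untreated (horizontal axis) for the factors (vertical axis) with 20 or more UMIs in each cell class, with exact 95% counting intervals. Filled points are past the fold rule and dashed lines mark 1.5 fold. Tcf7 lies at -1.67 in CD8 T and 1.08 in NK cells, and the filled points of other T cells were lost without 18 cells poor in lymphoid genes.

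**Figure D3:**
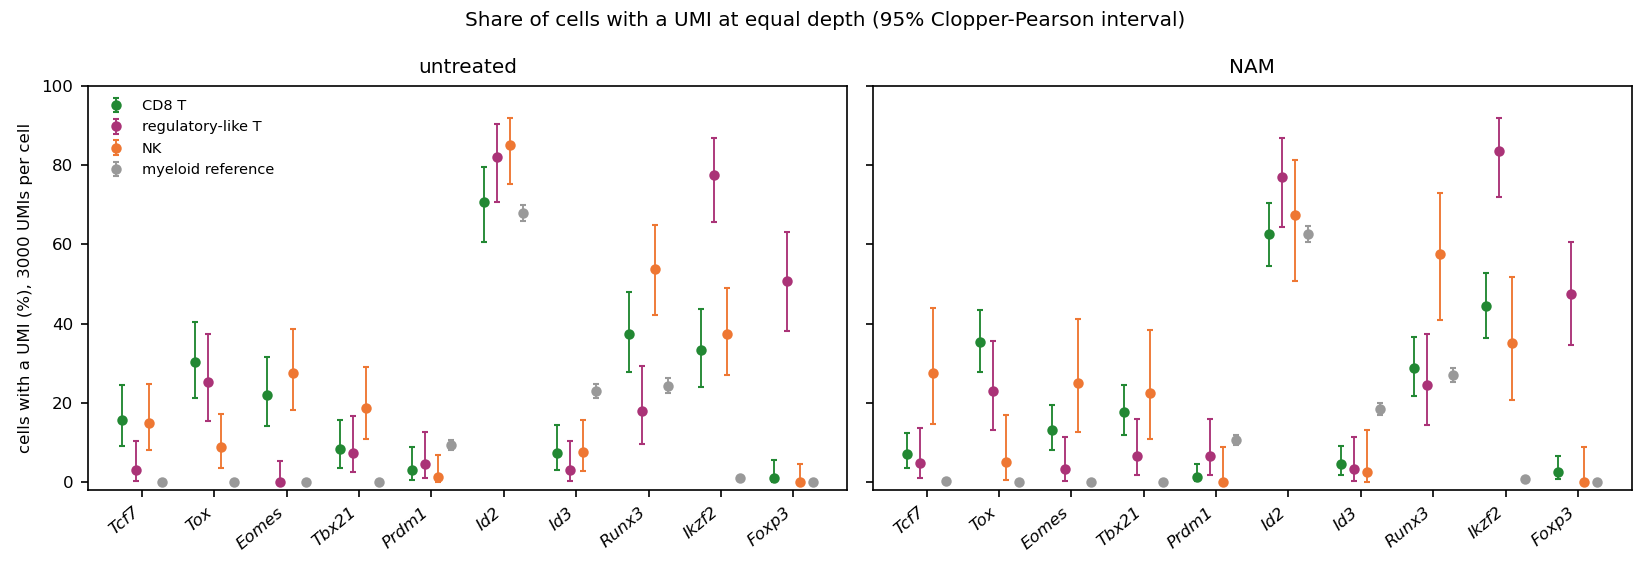
Percent of cells with a UMI of each factor (vertical axis) after thinning every cell to 3000 UMIs, by factor (horizontal axis) and class (color), in the untreated (left) and NAM (right) library, with 95% Clopper-Pearson intervals. The macrophage-rich reference (grey) is near 0 for Tcf7, Tox, Eomes, Tbx21 and Foxp3 and at 67.9% and 62.7% for Id2.

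Within CD8 T cells, those with a Tcf7 UMI differed from those without in Id2, in the same direction in both libraries. An Id2 UMI was seen in 9 of 19 untreated cells with Tcf7 (47.4%, 24.4 to 71.1%) and 64 of 77 without (83.1%, 72.9 to 90.7%). In NAM it was seen in 6 of 15 (40%, 16.3 to 67.7%) and 107 of 138 (77.5%, 69.7 to 84.2%). As a level, Id2 stood at 262 CPM with Tcf7 and 1117 CPM without it in untreated, and at 123 and 928 CPM in NAM. Tox was seen in 26.3% (9.15 to 51.2%) of untreated cells with Tcf7 and 44.2% (32.8 to 55.9%) without, and in 33.3% (11.8 to 61.6%) and 46.4% (37.9 to 55.1%) in NAM, with overlapping intervals. No CD8 T cell had both Tcf7 and Prdm1 UMIs, but only 7 had Prdm1. Cells with Tcf7 were deeper than those without (median 5534 against 4369 UMIs in untreated, 4584 against 4494 in NAM), and the part of depth in this split was not tested.

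Of 45 genes of the 6 lists described next that had 20 UMIs or more in each library, 1 was higher and 11 were lower with Tcf7 past the fold rule in both, where 23 of all 3149 genes were higher and 43 lower, or 2.1% in all. Of 6 other factors tested the same way, Id2 passed. The list genes named here were chosen after their values were seen. In cells with Tcf7, Slamf6, a surface receptor of stem-like T cells, was at 117 CPM against 37.9 CPM without Tcf7 in untreated (log2 ratio 1.63, 0.44 to 2.80) and at 85.9 against 21.3 CPM in NAM (2.01, 0.49 to 3.37). The chemokine gene Ccl5 was lower with Tcf7, at 803 against 4267 CPM (-2.41, -2.73 to -2.10) and at 221 against 3947 CPM (-4.16, -4.92 to -3.50), as was Gzmb, which encodes granzyme B, at 198 against 523 CPM (-1.40, -2.10 to -0.76) and at 233 against 898 CPM (-1.95, -2.69 to -1.29). The cells with Tcf7 were few, 19 and 15, so a gene's UMIs may come from a handful of cells.

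**Figure D4:**
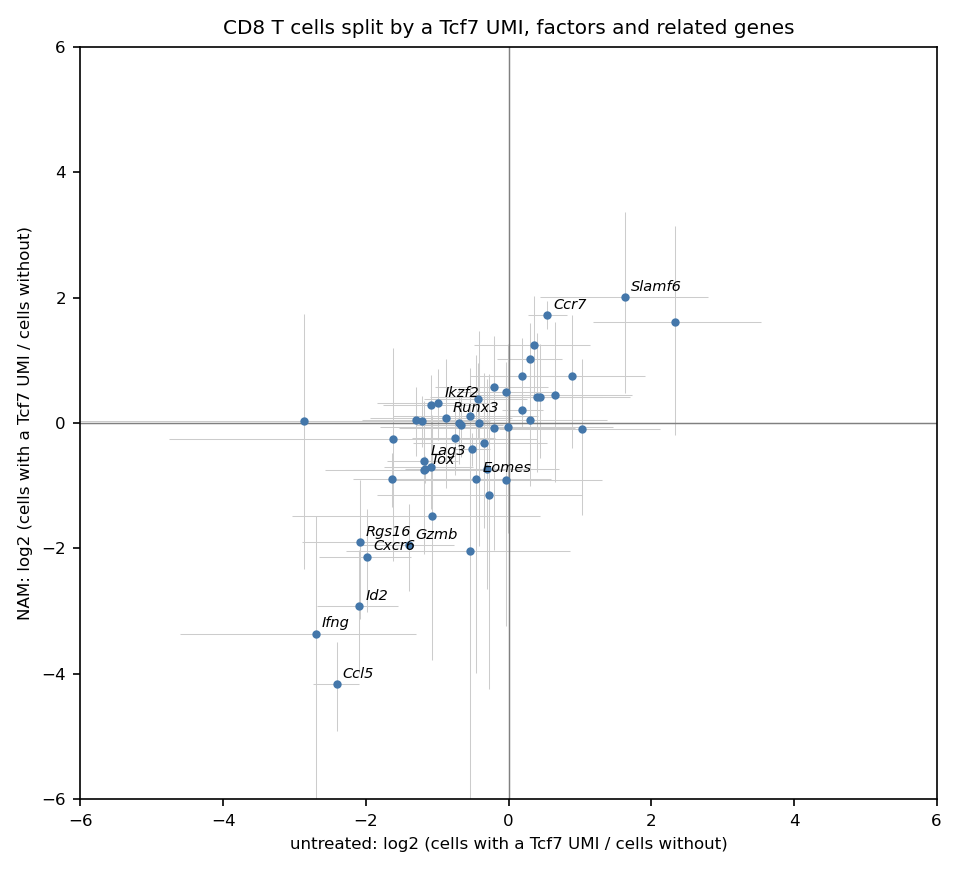
Log2 ratio of the level in CD8 T cells with a Tcf7 UMI to those without, in the untreated (horizontal axis) and NAM (vertical axis) library, for 49 factors and related genes. Grey bars are 95% counting intervals, some running past the axes. Id2, Ccl5, Gzmb and Cxcr6 lie below 0 and Slamf6 and Ccr7 above 0 in both libraries.

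Other pairs of factors met in the same cells to differing degrees. Nearly every regulatory-like cell with Foxp3 also had Ikzf2, 37 of 39 in untreated and 35 of 35 in NAM, against 60.7% (40.6 to 78.5%) and 69.2% (48.2 to 85.7%) of those without a Foxp3 UMI. The 2 untreated and 5 NAM CD8 T cells with Foxp3 all had Ikzf2. CD8 T cells with Tox had Pdcd1, the gene of the checkpoint receptor PD-1, in 89.7% (75.8 to 97.1%) and 95.7% (87.8 to 99.1%) of cells, against 61.4% (47.6 to 74.0%) and 58.3% (47.1 to 69.0%) without Tox. Eomes and Tbx21 met in only 6 CD8 T cells of each library, and Tbx21 was as frequent with Eomes (19.4% and 21.4%) as without (21.5% and 27.2%) within their intervals. All shares of pairs were taken at full depth, and the part of depth in them was not tested.

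The 6 lists of related genes, of 14 each, were read beside the factors. In CD8 T cells 3 of 11 memory or naive genes with enough UMIs were lower in NAM and 1 was higher, where 8.13% of all genes were past the rule either way. The lower ones included Slamf6 (55.3 to 27.6 CPM, log2 ratio -0.999, -1.86 to -0.15) and Klf2 (422 to 206 CPM, -1.04, -1.34 to -0.74), a factor that keeps T cells recirculating. The higher one was Il7r, the receptor subunit for a survival cytokine (51.3 to 85.3 CPM, 0.73, 0.07 to 1.44), while Ccr7 (1076 and 1049 CPM) and the TCF1 partner Lef1 (33.5 and 24.0 CPM) were not past the rule. Of 13 effector genes Gzmb was higher (452 to 833 CPM, 0.88, 0.66 to 1.10) and Gzma lower. Of 12 genes of chronic stimulation Nr4a1, an early gene of antigen receptor signaling, was higher (0.77, 0.23 to 1.33) and Rgs16 lower (-0.67, -0.92 to -0.43), and Pdcd1 (0.16), Lag3 (0.08) and Havcr2 (-0.13) were not past the rule. None of 8 regulatory genes was past it, Il7r was the 1 of 8 innate and residency genes, and Tle3, a corepressor that TCF factors recruit, was the 1 of 10 other partners (-1.30, -2.39 to -0.26). The median ratios of the lists were -0.23 (memory), 0.03 (effector), 0.09 (chronic stimulation), 0.37 (regulatory), 0.06 (innate and residency) and -0.34 (other partners), where that of all genes was 0.02.

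In NK cells 5 of 12 effector genes were higher and 2 lower, beside 139 higher and 289 lower of the 4305 genes tested (9.94% either way). The median of the list was 0.49 and that of all genes -0.03. Gzmb (1352 to 2871 CPM, 1.09, 0.93 to 1.24), Gzma (0.98, 0.87 to 1.10), Ccl5 (0.78, 0.59 to 0.97), Nkg7 (0.61, 0.46 to 0.75) and Ifng (2.74, 1.39 to 4.25, from 7 and 17 UMIs) were higher, and Klrg1 and Zeb2, at 1 and 2 UMIs in NAM, were lower. Of the memory list, Bcl2 (0.79, 0.37 to 1.197) was higher beside Tcf7. The macrophage genes summed to 2087 CPM in untreated and 1245 CPM in NAM NK-gated cells, and their part in these ratios was not tested. In regulatory-like cells each list, of 9 to 12 genes with enough UMIs, had between 0 and 1 genes higher and between 1 and 3 lower, where 9.89% of all genes were past the rule either way. Among them were Il10 (1.29, 0.03 to 2.69) higher and Il1rl1, the receptor for interleukin-33, lower (-1.87, -3.12 to -0.78).

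Levels of the factors were set beside those of 3883 genes by Pearson correlation of log2(CPM + 10). This used 8 points, 4 classes in 2 libraries, and is a description that the shared libraries and class totals enter. The genes named are the highest of 3883 over 8 points, and how high the best match would be by chance was not tested. The points of other T cells enter every ranking and include the 18 cells poor in lymphoid genes. The genes most like Tcf7 were Commd8 (0.95), Bcl2 (0.92) and Ssh2 (0.90), and those most like Eomes were Ppp3cc (0.98), Dnajc15 (0.96) and Ugcg (0.94). Tox was followed by Nrn1 (0.98), Dusp14 (0.97) and Plk2 (0.97), and Tbx21 by Ddx1 (0.97), Nabp1 (0.97) and Il2rb (0.96). Runx3 was most like Gzma (0.97), Txk (0.96) and Lilr4b (0.96), Id2 like Tnfrsf9 (0.97), Stx11 (0.96) and Lsm5 (0.96), Ikzf2 like Ly6a (0.98), Rfk (0.96) and Isg20 (0.96), and Foxp3 like Mif4gd (0.98) and Arl5a (0.97). For Prdm1 (Atp5c1, Map2k2, Ywhae) and Id3 (Wdr26, Sft2d2, Clta) the pattern rested on 47 and 58 UMIs, of which the 13 of Prdm1 in NAM other T cells came from cells poor in lymphoid genes.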

How the data were processed

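Single Cell 3′ libraries of 2 CD45+ suspensions, 1 per group, were made on the 10x Genomics platform. The authors aligned the reads to mm10 and counted UMIs per gene and cell with Cell Ranger, and the deposited values are these raw counts, with no normalization. The paper left out cells with few genes, few UMIs or a high share of mitochondrial genes. Cells in the tables had between 3001 and 41658 UMIs, so none lay under the paper's UMI limit. The lowest cell had 3018 UMIs in untreated and 3001 in NAM. Whether the other limits had been applied was not tested. The libraries held 29161823 (untreated) and 32090120 (NAM) UMIs. Doublets were not removed and no doublet caller was run.

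UMIs were summed per class and library. The factors and gene lists were chosen with earlier results of these data known, and the 1% limit on macrophage genes was placed after its distribution was seen, with 4 cells between 0.8 and 1.2%. Named genes were the 10 factors, the 3 genes most like each among genes with at least 100 UMIs, and genes of the 6 lists, of which some are not reported here. Medians used a pseudocount of 0.5 UMIs. Zero counts were set to a floor of 3 UMIs in fold bounds. Cells were thinned with seed 1, which dropped 0 cells. Positions were taken from GENCODE vM21 (GRCm38) by symbol. The interval step was tested on simulated Poisson counts, which hold no spread between cells or mice, and the thinning step on cells of these data. Python 3.11.15, NumPy 2.4.6, SciPy 1.17.1, pandas 2.3.3 and matplotlib 3.10.9 were used. Alternatives changed the gates, the cells left out, the scaling, the depth and the thresholds.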

Additional observations from a re-analysis of the deposited data

Results flagged for a closer look

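Tcf7 was lower in NAM in CD8 T cells (log2 ratio -1.67) and higher in NAM in NK cells (1.08), and both ratios were past the fold rule. The difference between the classes was not tested, since there was 1 library per group.

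In the cells with both Cd3e and Ncr1 UMIs, which entered no comparison of the classes, Ikzf2 was at 384 CPM (255 to 555) in 11 untreated cells and 720 CPM (573 to 892) in 19 NAM cells, a log2 ratio of 0.91 (0.27 to 1.58). A UMI of Ikzf2 was seen in 72.7% and 94.7% of these cells at full depth and in 72.7% and 68.4% at 3000 UMIs per cell. In the same cells Tnfrsf4 had 2 UMIs in untreated and 37 in NAM. A list of 6 regulatory T markers, Ikzf2 among them, summed to 740 CPM in untreated and 1648 CPM in NAM. The part of regulatory-like cells in the Ikzf2 ratio was not tested.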

How the results depend on the processing

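Tcf7 in CD8 T cells kept its direction and its side of the fold rule under all 14 alternatives. Eomes in CD8 T cells did so under 13, and without cells holding an Mki67 or Top2a UMI it was -0.76, which left 1 factor past the rule in that class. The count was 3 without Gzma or Klrb1c cells, where Runx3 reached -0.60. No factor of regulatory-like cells was past the rule under any setting run. The cause of the changes below was not tested.

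Tcf7 in NK cells stayed above 0 throughout but was no longer past the rule with the lymphoid panel in place of the macrophage limit (0.61), without the deepest cells (0.71), without cycling cells (0.91), with limit and panel together (0.81), when thinned (0.55) and without the 5 cells per library with most Tcf7 UMIs (1.32), a setting that picks cells by the gene itself and takes 5 of 80 untreated and 5 of 40 NAM cells. The count of factors past the rule in NK cells was 0 with the panel, with limit and panel, without the deepest cells, when thinned and at a minimum of 50 UMIs, and 2 with T cells taken by any Cd3 gene, with the stricter NK gate and with median-of-ratios scaling.

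Id2 in other T cells turned to 0.031 with the panel, 0.76 at 0.5% macrophage genes, 0.68 with limit and panel and 0.56 without the 5 cells with most Id2 UMIs. The count in other T cells, 2 as reported, was 0 with the panel and with limit and panel. It was 1 with any Cd3 gene, at 0.5% macrophage genes, with Ncr1 cells kept, with the regulatory gate by Foxp3 or Il2ra, without cycling cells, without Gzma or Klrb1c cells, when thinned and at a fold of 2.

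Between CD8 T and NK cells the count of separating factors was 2 with any Cd3 gene, with the panel, with the stricter NK gate and with limit and panel, and between regulatory-like and NK cells it was 4 with the stricter NK gate. Limit and panel together, and the removal of Gzma or Klrb1c cells, were chosen after seeing the data. Of 307 alternative log2 ratios of single factors, 12 moved outside their main interval with no change of call, 15 fell short of the rule, 6 newly passed it and 4 that had been past it, all of Id2 in other T cells, changed sign. Ratios that were not past the rule also changed sign under some settings, such as Id3 in NK cells. No paired analysis was possible because each group had 1 library. Depth limits the reading, since 18 of the 40 pairs of factor and class had under 20 UMIs.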
